A study of Homo sapiens with 12 samples.

Results

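Imprinted genes are read from one parental copy only, and the expression of 10 of them (MEST, PEG3, PEG10, SGCE, H19, IGF2, MEG3, DLK1, PLAGL1 and CDKN1C) was followed in 2 human glioblastoma cell lines before and after temozolomide (TMZ) selection. The 10 genes were chosen by name, with MEST first among them because its large difference in U118 had already been seen in these data, so their U118 values are given as a description with no test. They are 10 of the 58174 genes in each deposited table, and each was found there once. U87 (U-87 MG) and U118 (U-118 MG) are established glioblastoma lines, and TMZ is the alkylating drug used against this tumor. The groups carry the labels sensitive and resistant, with 3 libraries in each of the 4 groups and 12 in all. In the study's methods the sensitive cells are control cells of the CD133-CD15- fraction, grown in serum with BMP2, and the resistant cells are aggregations that formed from such cells after weeks of TMZ at 50 μM. Whether the drug was still present when they formed is described in more than one way there. The methods say of all experiments that they were repeated, but not that the 3 libraries of a group came from separate cultures, so every p-value measures only the spread between these libraries, which may be technical. Each line was sequenced from bulk RNA, in which fewer cells of a type and less RNA per cell cannot be told apart.

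Genomic imprinting marks a control region with DNA methylation in the egg or the sperm, and the mark is copied at each cell division, so that a gene is transcribed from the paternal copy alone (MEST, PEG3, PEG10, SGCE, IGF2, DLK1, PLAGL1) or the maternal copy alone (H19, MEG3, CDKN1C). Many imprinted genes act on fetal growth: paternally expressed ones often promote it and maternally expressed ones often restrain it. Loss or gain of the mark, called loss of imprinting, is well known in tumors, but total transcript levels do not show which parental copy was read. Parental copies were not resolved here.

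All values are TPM, which scales reads for transcript length and to a fixed total in each library, and the depth behind them is unknown. Differences are resistant minus sensitive means of log2(TPM + 1), a scale that shrinks the change of low genes. A gene was called when its limma adjusted p (Benjamini-Hochberg, over all genes tested in that line) was under 0.05 and its log2 difference was at least 1 in size. Of 13845 genes tested in U87, 3.03% were called higher and 7.79% lower, and of 15527 in U118, 8.64% were called higher and 26.6% lower. The median difference of all genes tested was -0.24 in U87 and -0.52 in U118, and it moved to -0.01 and -0.02 when the libraries were scaled to a common median ratio. This scaling changed the split of the calls from 419 higher and 1078 lower to 663 and 543 in U87, and from 1341 and 4134 to 2337 and 1981 in U118. The share of all TPM that fell on mitochondrially encoded transcripts was higher in resistant libraries of U87 (22.2% to 23.7%) than in sensitive ones (12.9% to 16.9%). In U118 it ranged from 7.42% to 19.8% in sensitive and from 13.2% to 29.9% in resistant libraries.

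The libraries labelled U118 resistant stood apart from their label. Of 110 genes at 10 TPM or more in all 3 U118 sensitive libraries and under 0.1 TPM in all 3 U87 sensitive libraries, only 5 to 7 were still at 10 TPM in a U118 resistant library. In the reverse direction, 44 genes marked U87 sensitive libraries against U118 sensitive ones, and 25 to 28 of them reached 10 TPM in a U118 resistant library, against 36 to 37 in a U87 resistant library. Across 18525 genes, Spearman's rho of U118 resistant with U118 sensitive libraries was 0.821 to 0.845, below its 0.902 to 0.914 with U87 sensitive libraries (genes are not independent replicates, and the lines were quantified in separate tables). The profiles were not those of U87 throughout. THY1, a surface protein of fibroblasts and other mesenchymal cells, was at 51.2 to 104 TPM in U118 resistant libraries and at most 0.127 TPM in U87 libraries. The other fibroblast markers listed lay at or near U87 levels in U118 resistant libraries. PDGFRA was at 0.0716 to 0.105 TPM (at most 0.311 in U87, 71.8 to 88.3 in U118 sensitive libraries). DCN was at 0.224 to 1.06 TPM (U87 at most 1.94), LUM at 1.83 to 2.48 (U87 0.300 to 5.77) and FAP at 4.72 to 11.5 (U87 5.01 to 34.7). Each U118 result below rests on the 3 U118 resistant libraries, which were not alike. The first had 15193 genes at 1 TPM or more, against 13270 in the second and 13545 in the third. Its mitochondrially encoded share was 13.2%, against 29.9% and 26.1%. Without the U118 resistant libraries only the U87 comparison remains, and the part that cell identity has in the U118 values was not tested.

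**Figure D1:**
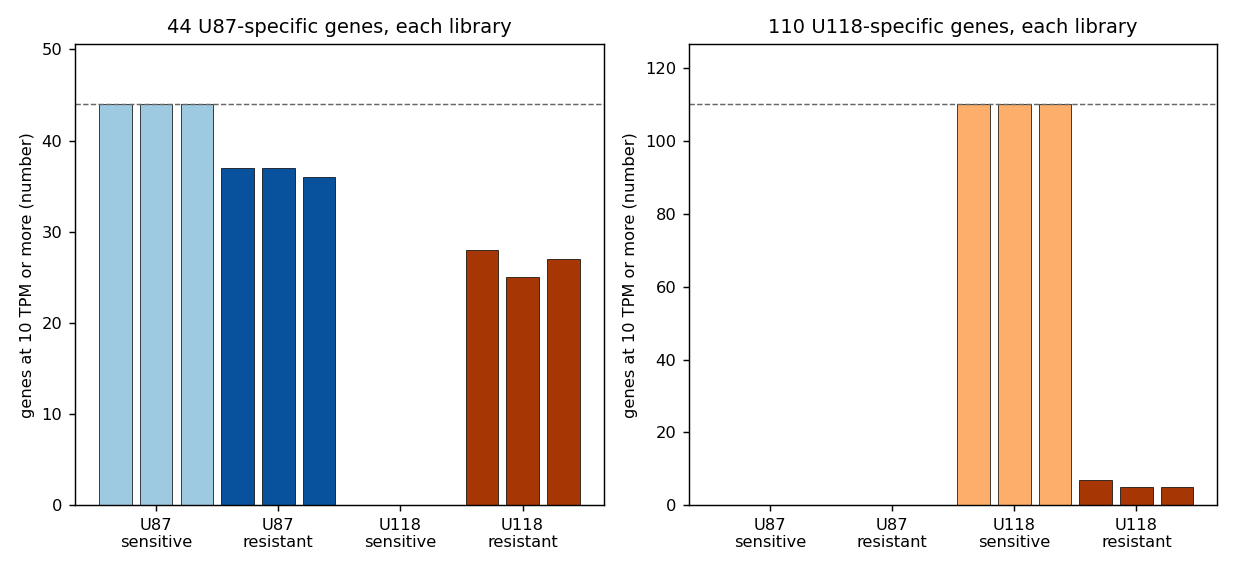
Number of line-specific genes at 10 TPM or more in each library, for the 44 U87-specific genes (left) and the 110 U118-specific genes (right), with the dashed line at the size of the class. The 3 U118 resistant bars stand at 25 to 28 on the left and at 5 to 7 on the right.

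Markers of the labelled cell type were mixed. VIM and CD44, which mesenchymal glioma cells express at high level, made up most of the summed glioma and astrocyte markers (5029 to 5060 TPM in U87 sensitive and 6738 to 6962 TPM in U118 sensitive libraries), while GFAP was at most 0.693 TPM in every library and AQP4 was listed at 0. The 5 fibroblast markers summed to 5.44 to 15.1 TPM in U87 sensitive and 36.1 to 41.0 TPM in U87 resistant libraries. In U118 they summed to 391 to 602 TPM in sensitive and 61.0 to 110 TPM in resistant libraries. THY1 made up most of the U118 sums (213 to 459 TPM in sensitive and 51.2 to 104 TPM in resistant libraries). FAP made up most of the U87 resistant sums (28.9 to 34.7 TPM), so the sums of the lines rest on different genes. The 3 immune and the 3 endothelial markers stayed at sums of at most 0.862 and 1.20 TPM, and the 3 epithelial markers, mostly KRT8, at 1.02 to 17.4 TPM. The part of these shifts in the imprinted genes was not tested.

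Promoter sequences are shown for MEST, PLAGL1, NDN and FAM50B, 4 imprinted genes whose levels were far apart between the sensitive lines and between the U118 groups, since DNA methylation at CpG sites is the mark that imprinting uses. The letters come from RefSeq (GRCh38.p14), whose table holds 14 promoter windows of 4 of the 10 genes (MEST, H19, MEG3 and PLAGL1). PEG3, PEG10, SGCE, IGF2, DLK1 and CDKN1C were not matched. Each line gives the 250 bases before a transcript start, 5′ to 3′ on the strand of the gene, with every CpG in capitals. The deposited TPM are per gene and do not say which start was used.

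MEST, upstream start, chr7:130486097-130486346 (+): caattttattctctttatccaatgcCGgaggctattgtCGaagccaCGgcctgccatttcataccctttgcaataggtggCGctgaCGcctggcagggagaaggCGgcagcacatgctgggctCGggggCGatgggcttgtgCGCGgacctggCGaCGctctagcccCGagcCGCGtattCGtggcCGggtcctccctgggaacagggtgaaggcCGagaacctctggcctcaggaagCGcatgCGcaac
MEST, downstream start, chr7:130491835-130492084 (+): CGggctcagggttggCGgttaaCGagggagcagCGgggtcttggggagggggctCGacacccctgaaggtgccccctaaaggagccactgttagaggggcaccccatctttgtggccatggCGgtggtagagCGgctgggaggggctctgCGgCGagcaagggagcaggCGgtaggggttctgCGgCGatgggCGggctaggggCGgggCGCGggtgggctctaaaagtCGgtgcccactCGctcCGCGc
PLAGL1, upstream start, chr6:144064600-144064849 (-): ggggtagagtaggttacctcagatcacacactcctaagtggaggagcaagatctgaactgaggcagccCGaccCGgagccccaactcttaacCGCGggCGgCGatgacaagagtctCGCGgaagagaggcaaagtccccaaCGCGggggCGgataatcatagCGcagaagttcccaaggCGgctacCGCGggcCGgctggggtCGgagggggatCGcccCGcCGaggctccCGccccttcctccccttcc
PLAGL1, downstream start, shared with HYMAI, chr6:144008260-144008509 (-): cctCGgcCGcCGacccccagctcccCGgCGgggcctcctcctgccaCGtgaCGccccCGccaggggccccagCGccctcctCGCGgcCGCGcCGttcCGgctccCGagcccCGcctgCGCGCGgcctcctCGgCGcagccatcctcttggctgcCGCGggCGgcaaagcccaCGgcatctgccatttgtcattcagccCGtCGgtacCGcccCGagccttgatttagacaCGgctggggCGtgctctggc
NDN, chr15:23687306-23687555 (-): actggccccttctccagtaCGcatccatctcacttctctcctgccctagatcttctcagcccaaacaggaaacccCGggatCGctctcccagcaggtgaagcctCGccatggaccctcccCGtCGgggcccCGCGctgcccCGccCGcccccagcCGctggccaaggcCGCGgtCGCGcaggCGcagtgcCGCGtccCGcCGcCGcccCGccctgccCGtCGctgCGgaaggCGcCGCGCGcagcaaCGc
FAM50B, chr6:3849123-3849372 (+): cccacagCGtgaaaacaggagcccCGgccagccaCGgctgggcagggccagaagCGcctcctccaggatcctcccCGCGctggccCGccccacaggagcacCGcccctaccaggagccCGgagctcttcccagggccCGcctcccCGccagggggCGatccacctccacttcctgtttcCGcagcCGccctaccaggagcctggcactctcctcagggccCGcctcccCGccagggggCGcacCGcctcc

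The table holds 5 windows for MEST, with 9 to 20 CpG, and 5 for PLAGL1, with 1 to 32 CpG. The printed MEST starts lie 5738 bp apart and hold 20 CpG each, the most of the MEST windows, and the printed PLAGL1 starts lie 56340 bp apart and hold 21 and 32 CpG, against 1 to 3 in its other windows. NDN had 30 and FAM50B had 18, against a median of 11 over all 35116 windows of the table. At least 20 CpG were held by 32.4% of those windows, so such counts are common. The windows of NAP1L5, ZNF597, SNHG14 and TFPI2 held 16, 13, 4 and 20 CpG. These genes were also at least 2 log2 units apart between the sensitive lines and are not shown, so the printed windows do not stand for all such genes. The downstream starts of MEST and PLAGL1 are known to sit in the differentially methylated regions of these genes. The letters TGCCGC, the core motif of the imprint-guarding protein ZFP57, were searched on both strands. They occurred in the upstream MEST window, in the downstream PLAGL1 window (2 matches) and in the NDN window, and in 3 MEG3 windows that overlap almost wholly and so count the same stretch. Of all windows, 12.7% held the motif. A match is a description of the letters and not of binding.

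MEST (mesoderm-specific transcript, also known as PEG1) encodes an enzyme of the alpha/beta hydrolase fold that is known from fetal mesoderm and expanding fat tissue. Its gene (ENSG00000106484) spans chr7:130486171-130506465 on the plus strand. In U118 sensitive libraries MEST was at 499, 351 and 426 TPM. In U118 resistant libraries it was at 1.86, 0.612 and 0.478 TPM. The groups did not overlap (as for 58.6% of all genes tested in U118), and the log2 difference was -7.80 (SE 0.29), or -7.28 relative to the median of all genes. In U87 the gene was low throughout, at 0.290, 1.06 and 0.896 TPM in sensitive libraries and at 2.76, 1.88 and 2.35 TPM in resistant ones. All 3 U87 resistant libraries lay above all 3 sensitive ones (53.4% of all genes tested in U87 had groups that did not overlap), with a log2 difference of 0.95 (SE 0.22, limma adjusted p = 0.0128). This was under the size needed for a call, and it passed that size under median-ratio scaling, at 1.10 (adjusted p = 0.00320). U118 resistant and U87 libraries thus held MEST at overlapping levels, with the reservation that the lines were quantified in separate tables. MESTIT1, an antisense transcript at the same locus, was at 0.348, 0.359 and 0.323 TPM in U118 sensitive libraries and was listed at 0 in every other library. The counting was not stated to use strand, so reads of the pair cannot be told apart.

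PEG10 and SGCE share an imprinted region on chromosome 7 and start head to head, 247 bp apart. PEG10 (ENSG00000242265, chr7:94656325-94669695, plus strand) derives from a retrotransposon and is required in the placenta, and SGCE (ENSG00000127990, chr7:94524204-94656572, minus strand) encodes epsilon-sarcoglycan of the dystrophin-associated complex. In U87 sensitive libraries PEG10 was at 14.8, 18.8 and 16.3 TPM. In U87 resistant libraries it fell to 3.59, 2.91 and 3.31 TPM. Its log2 difference of -2.04 (SE 0.15, limma adjusted p = 0.000160) made it the 1 gene called of the 4 among the 10 that passed the filter in U87, where 7.79% of all genes were called lower. The result kept its call under each scaling, with -1.82 under median-ratio scaling. In U118 PEG10 was at 19.6, 20.7 and 57.0 TPM in sensitive and 20.5, 9.91 and 16.5 TPM in resistant libraries. There the groups overlapped, and the difference of -0.89 (SE 0.42) rested largely on the third sensitive library, without which it was -0.40.

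SGCE was lower in resistant libraries of both lines. In U87 it was at 30.3, 53.7 and 34.3 TPM in sensitive and 21.3, 22.5 and 26.2 TPM in resistant libraries. The groups did not overlap, and the log2 difference of -0.69 (SE 0.21, limma adjusted p = 0.0402) was under the size of a call. Under median-ratio scaling the adjusted p was 0.0812, with a difference of -0.44. In U118 SGCE was at 71.7, 86.97 and 105 TPM in sensitive libraries. It was at 55.7, 32.8 and 32.2 TPM in resistant ones, with a difference of -1.14 (SE 0.27) that became -0.59 under median-ratio scaling. The U87 difference of PEG10 was thus larger than that of SGCE, whose start is 247 bp away, and the difference between the 2 genes was not tested.

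PLAGL1 (ZAC1) encodes a zinc-finger transcription factor known to restrain proliferation and to act on other imprinted genes. It spans chr6:143940300-144064599 on the minus strand (ENSG00000118495). In U118 its levels ran opposite to those of MEST. The sensitive libraries held 0.0251, 0 and 0 TPM, and the resistant libraries held 13.6, 5.39 and 14.9 TPM, a log2 difference of 3.50 (SE 0.34) that depends on the pseudocount of 1 TPM because the sensitive level is near 0. In U87 PLAGL1 was present in every library, at 11.9, 11.7 and 10.1 TPM in sensitive and 14.1, 13.3 and 14.6 TPM in resistant cells. The U87 groups did not overlap, but the difference of 0.30 (SE 0.12, limma adjusted p = 0.0980) did not pass the test. It passed 0.05 under median-ratio scaling (0.54, adjusted p = 0.0206). PLAGL1 is 1 of the 44 U87-specific genes counted above. HYMAI, the non-coding RNA of the same control region, reached at most 0.207 TPM in any library. It was listed at 0 in all U118 sensitive libraries and was at 0.114, 0.207 and 0.0376 TPM in U118 resistant ones. In U87 it was at 0.00115 to 0.0533 TPM.

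**Figure D2:**
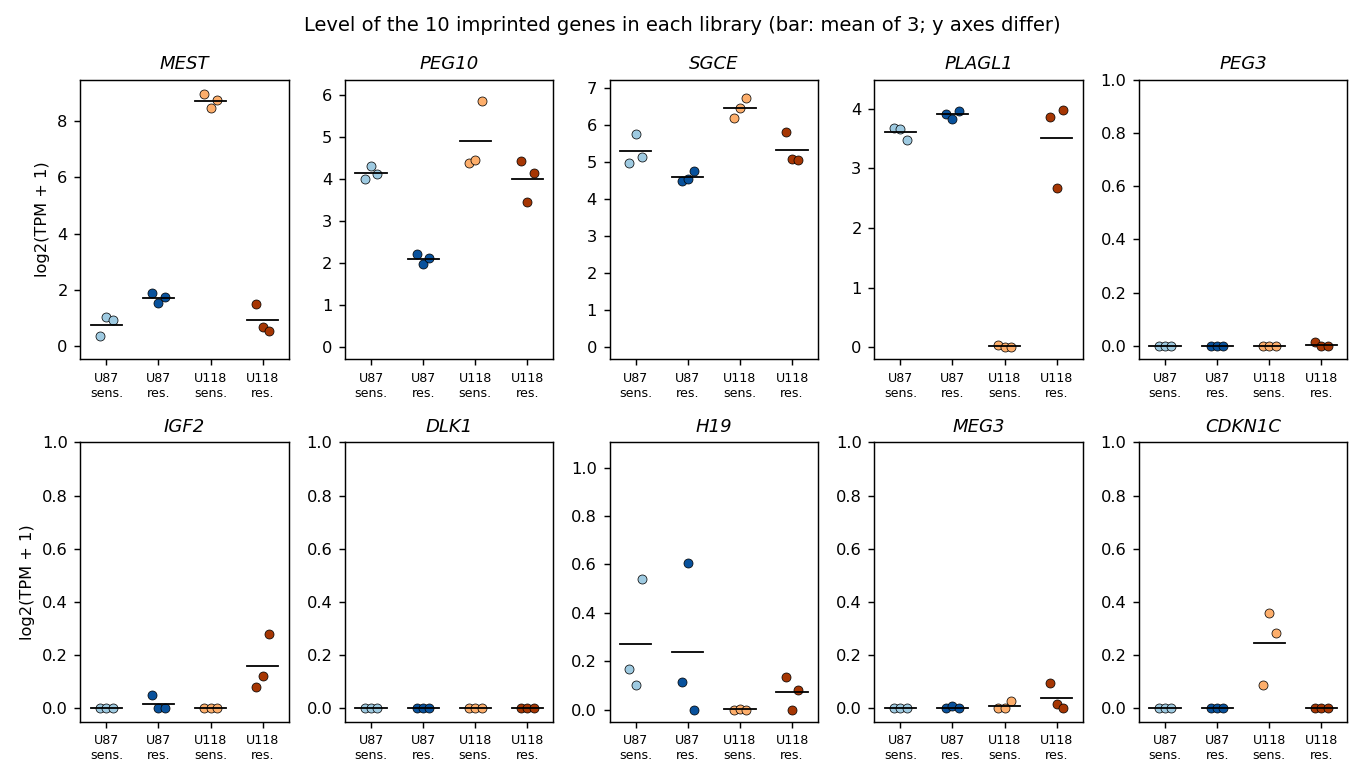
log2(TPM + 1) of the 10 imprinted genes in each of the 12 libraries, by group, with a bar at the mean of 3 libraries; the scale of the y axis differs between genes. MEST stood at 351 to 499 TPM in U118 sensitive libraries only, PLAGL1 was near 0 there only, and 6 genes stayed under 1 TPM in every library.

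The other 6 genes stayed under 1 TPM in all 12 libraries, so none of them entered a test. DLK1, a Notch-like surface protein of fetal tissue, was listed at 0 in every library. PEG3, a zinc-finger protein of chromosome 19 whose silencing is known in glioma lines, was listed at 0 in 11 libraries and at 0.00853 TPM in the first U118 resistant library. IGF2, the fetal growth factor, was listed at 0 in all U87 sensitive libraries. Its highest value was 0.214 TPM in U118 resistant libraries, where it was at 0.0583, 0.0881 and 0.214 TPM, against 0, 0.000878 and 0 TPM in U118 sensitive ones. Those 3 values lay above the sensitive ones, but at such levels the unknown depth leaves no limit of detection to read them against.

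The maternally expressed genes of the set were as low. H19, the non-coding RNA that shares its control region with IGF2, was at 0.0744 to 0.455 TPM in U87 sensitive libraries and at 0 to 0.521 TPM in U87 resistant ones, with overlapping groups. In U118 it was at most 0.00134 TPM in sensitive and 0.0983 TPM in resistant libraries. MEG3, a non-coding RNA of the DLK1 region that is known to be silenced in many tumors, did not exceed 0.0695 TPM. CDKN1C, which encodes the cell-cycle inhibitor p57, was at 0.0634, 0.284 and 0.218 TPM in U118 sensitive libraries and was listed at 0 in the other 9. Thus 4 of the 10 genes passed the filter in each line, and no count over those 4 in U118 is offered as support. PLAGL1 passed there through its resistant libraries alone, and MEST would have passed through its sensitive libraries alone.

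Other imprinted genes, which the rule did not use, were read from a list of 26 paternally and 16 maternally expressed ones. In U87, 19 of these 42 passed the filter, and 5 rose and 1 fell, against 3.03% and 7.79% of all genes. Their median difference was -0.10, beside -0.24 for all genes tested. Among these U87 rises, SNRPN, SNURF and SNHG14 lie along 1 long transcript described below, so they do not count as separate observations. The U87 fall was KCNQ1, which passed the filter through its sensitive libraries alone. In U118, 24 passed the filter, and 5 rose and 6 fell, against 8.64% and 26.6% of all genes, with a median of -0.58 beside -0.52. Counts under median-ratio scaling were 5 and 1 in U87 and 6 and 5 in U118. The fitted medians include genes with a whole group at 0, whose differences depend on the pseudocount.

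In U87 the largest group of rises lay on chromosome 15, in the Prader-Willi region, where a long paternal transcript carries the SNURF-SNRPN reading frames and then SNHG14, the host of small nucleolar RNAs. SNRPN, a core splicing protein, rose from 30.2, 30.1 and 27.8 TPM to 123.3, 117.6 and 121 TPM (log2 difference 2.01, SE 0.08, limma adjusted p = 2.64e-05). SNHG14 rose from 1.69, 3.03 and 1.95 TPM to 7.62, 6.74 and 8.46 TPM (1.43, adjusted p = 0.00167). SNURF, which shares its first exons with SNRPN so that their reads cannot be divided with certainty, rose from 1.33 to 2.14 TPM to 2.90 to 12.1 TPM (1.52, adjusted p = 0.0279), a call lost in 5 of the 6 fits that leave out 1 library. The remaining genes of the region did not pass: MKRN3 was at 4.81 to 11.3 TPM in sensitive and 2.38 to 3.46 TPM in resistant libraries (-0.91, adjusted p = 0.0552). MAGEL2 did not exceed 0.0214 TPM, and NDN was at most 0.0450 TPM in U87.

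The same region differed in U118. NDN, a growth suppressor of the MAGE family, was at 31.4, 28.0 and 18.9 TPM in U118 sensitive libraries and was listed at 0 in all 3 resistant libraries. SNHG14 fell from 15.2, 13.5 and 20.2 TPM to 5.73, 2.13 and 2.43 TPM (-2.03, SE 0.33, limma adjusted p = 0.00108). SNRPN was at 45.1 to 70.1 TPM in sensitive and 28.97 to 40.0 TPM in resistant libraries (-0.80, adjusted p = 0.0227), under the size of a call. Under median-ratio scaling this U118 difference was -0.25. The change of SNRPN in U118 minus that in U87 was -2.80 (SE 0.25, limma interaction, adjusted p = 2.18e-06). For SNHG14 the difference was -3.47 (SE 0.41, adjusted p = 2.67e-05).

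DIRAS3 and TFPI2 rose in both lines. DIRAS3, a Ras-related growth suppressor read from the paternal copy, was at 1.54, 2.44 and 2.72 TPM in U87 sensitive and 6.80, 5.76 and 8.86 TPM in U87 resistant libraries (1.33, SE 0.22, limma adjusted p = 0.00345). In U118 it was at 0.0104 to 0.127 TPM and at 2.32 to 6.77 TPM (2.09, SE 0.31, a description since the filter was passed through the resistant libraries alone). TFPI2, a secreted protease inhibitor imprinted in the placenta, rose from 22.3, 30.2 and 24.0 TPM to 143, 140 and 154 TPM in U87 (2.48, SE 0.12, adjusted p = 6.23e-05). In U118 it rose from 475, 449 and 502 TPM to 1434, 1029 and 1181 TPM (1.34, SE 0.22, adjusted p = 0.00111). The rise of TFPI2 was larger in U87, by 1.14 on the log2 scale (interaction, adjusted p = 0.00131), and that of DIRAS3 did not differ past the threshold (0.75, adjusted p = 0.175).

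KCNQ1, a potassium channel whose gene holds the control region of CDKN1C, was the 1 imprinted gene outside the 10 that was called lower in U87. It went from 2.13, 2.81 and 2.43 TPM to 0.0771, 0.177 and 0.0679 TPM (-1.64, SE 0.13). It passed the filter through its sensitive libraries alone, so this is a description, and it did not exceed 0.0235 TPM in U118. KCNQ1OT1, the antisense RNA of that control region, reached at most 0.0852 TPM.

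Among the remaining U118 calls, FAM50B, a paternally expressed retrogene, was listed at 0 in all sensitive libraries and was at 4.75, 3.64 and 4.29 TPM in resistant ones. NAP1L5, a paternally expressed relative of histone chaperones, fell from 16.5, 18.0 and 21.3 TPM to 0.0548, 0 and 0 TPM. The maternally expressed zinc-finger gene ZNF597 fell from 3.50, 3.14 and 4.49 TPM to 0.0463, 0.0137 and 0 TPM. KLF14, a transcription factor 248005 bp downstream of the MEST start, was at 1.73, 1.25 and 1.58 TPM in sensitive libraries and was listed at 0 in resistant ones. GNAS, which encodes the stimulatory G protein subunit, fell from 709, 763 and 855 TPM to 293, 329 and 460 TPM (-1.13, SE 0.24, limma adjusted p = 0.00413), with -0.57 and no call under median-ratio scaling. GRB10, an adaptor that restrains insulin signaling, rose from 37.4, 35.9 and 34.5 TPM to 103, 72.9 and 72.7 TPM (1.16, SE 0.22, adjusted p = 0.00212). KCNK9, a potassium channel, rose from 0.204, 0.764 and 0.418 TPM to 6.06, 3.95 and 5.48 TPM (2.08, SE 0.23). Of the 11 calls in U118, 7 (DIRAS3, FAM50B, KCNK9, KLF14, NAP1L5, NDN and ZNF597) were of genes that passed the filter through 1 group alone, so their groups could not overlap. ATP10A passed in the same way and was not called (-0.84). Of the 16 genes that remain, 4 were called. NDN, KLF14 and FAM50B had 1 group listed at 0, so only their levels are given here.

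**Figure D3:**
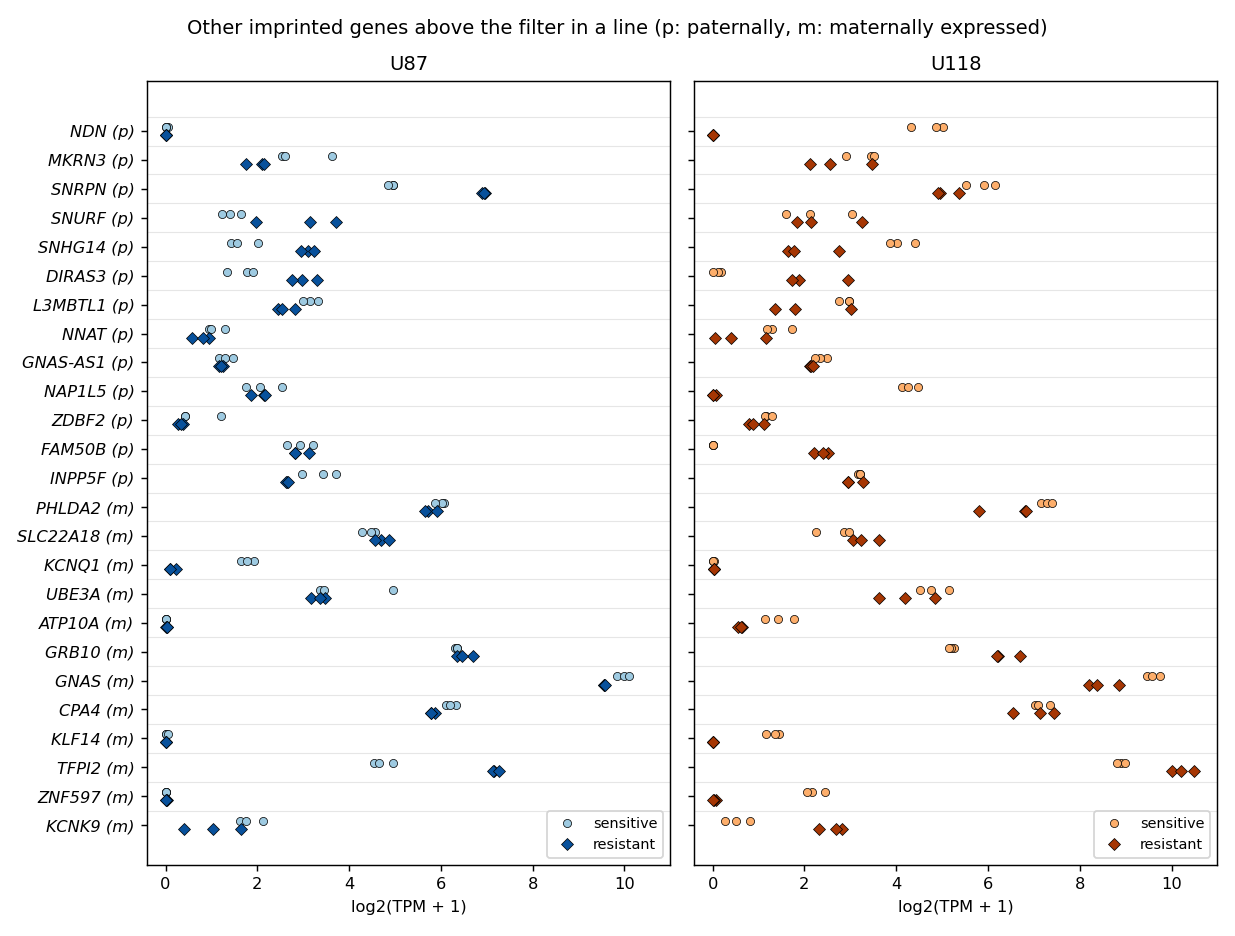
log2(TPM + 1) of the imprinted genes outside the 10 that passed the filter in at least 1 line, with circles for the 3 sensitive and diamonds for the 3 resistant libraries of U87 (left) and U118 (right). SNRPN and SNHG14 shifted up in U87 and not in U118, and NDN, NAP1L5, KLF14 and ZNF597 dropped to 0 or near it in U118 resistant libraries.

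The change differed between the lines for 10 of 25 imprinted genes outside the 10 (3 more positive and 7 more negative in U118), where 30.5% of all 16382 genes tested differed. For KCNQ1, NDN, ZNF597 and KLF14 the gene was near 0 in 1 line, so the difference is the change of the other line alone. Levels of 8 of the 52 imprinted genes were at least 2 log2 units apart between the sensitive lines. In U118 resistant libraries, 7 of these 8 (MEST, PLAGL1, FAM50B, NAP1L5, NDN, SNHG14 and ZNF597) had a mean nearer to U87 sensitive than to U118 sensitive cells, and TFPI2 did not. Of the 1623 genes that differ as much between the sensitive lines, 76.6% did the same, so the imprinted genes are described by this share and not set apart by it. NAP1L5 went past the U87 level, which was 2.35 to 4.84 TPM in sensitive and 2.61 to 3.49 TPM in resistant libraries.

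Proteins that write, read or guard the imprint were examined as a list of 16. DNMT1 and its partner UHRF1 copy methylation at replication, DNMT3A and DNMT3B write it anew, TET enzymes oxidize it, ZFP57 and ZNF445 hold it at control regions through TRIM28 and SETDB1, and CTCF separates enhancers from the unmethylated copy. In U87, 0 of 10 tested were called by limma, 5 had an unadjusted p under 0.05 and all 10 estimates were negative (9 of 10 under median-ratio scaling), beside the all-gene median of -0.24. In U118, 7 of 11 fell (beside 26.6% of all genes), but 2 of 11 did so under median-ratio scaling (beside 12.9%), and the median was -1.19 beside -0.52 for all genes. The 2 called under both scalings were DNMT3A, from 3.75, 6.36 and 5.32 TPM to 0.701, 0.703 and 0.344 TPM (-1.94, SE 0.23), and ZNF445, from 4.58, 8.91 and 7.77 TPM to 3.87, 1.08 and 1.11 TPM (-1.50, SE 0.38, limma adjusted p = 0.00967). DNMT3A and TET2 entered the test through their sensitive libraries alone, so their fall is a description. ZNF445 lost its call without the third U118 sensitive library (adjusted p = 0.0527). DNMT1 was at 219, 241 and 229 TPM in sensitive and 110, 94.3 and 92.2 TPM in resistant libraries (-1.21, adjusted p = 0.000863), and -0.66 under median-ratio scaling. UHRF1, DNMT3B, TET2 and CTCF were called at -1.08 to -1.38 and were not called under that scaling. ZFP57, DNMT3L, CTCFL and DPPA3, which act in germ cells and early embryos, did not exceed 0.0495 TPM.

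Partners of the 10 proteins were read as a list of 20. CDKN1A, the p53 target p21 and a relative of CDKN1C, rose in both lines. It went from 125, 117 and 117 TPM to 804, 642 and 838 TPM in U87 (2.65, SE 0.11, limma adjusted p = 3.02e-05), and from 101, 39.4 and 71.2 TPM to 687, 534 and 453 TPM in U118 (3.04, SE 0.34, adjusted p = 0.000114). CDKN1B, the third member of that family, fell in U118 from 44.5, 37.1 and 41.5 TPM to 27.8, 11.9 and 12.9 TPM (-1.28, adjusted p = 0.00915; -0.74 and not called under median-ratio scaling). CDKN1C, the imprinted one of the family, stayed under 1 TPM in all libraries. In U87 IGF2BP2, which binds IGF2 mRNA, fell from 54.4, 76.1 and 69.2 TPM to 25.8, 27.0 and 25.4 TPM (-1.31, adjusted p = 0.000532), and PLAGL2, a relative of PLAGL1, fell by 1.20 (adjusted p = 0.000297; -0.95 and not called under median-ratio scaling). The other 12 partners tested in U87 were not called.

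Of the sarcoglycans, which assemble with SGCE, SGCD and SGCB fell in U118. SGCD went from 5.74, 5.52 and 4.01 TPM to 0.976, 0 and 0.0917 TPM (-2.23, SE 0.29), passing the filter through its sensitive libraries alone, while in U87 it was at 1.07 to 2.63 TPM in sensitive and 3.30 to 4.53 TPM in resistant libraries (0.77, limma adjusted p = 0.0413). The difference between the lines was -2.99 (interaction, adjusted p = 7.41e-05). SGCB went from 30.3, 26.5 and 31.0 TPM to 17.5, 9.53 and 9.10 TPM (-1.27, adjusted p = 0.00496; -0.74 and not called under median-ratio scaling). IGF2BP3 (-1.23, adjusted p = 0.00246) and PLAG1 (-1.29, adjusted p = 0.00975) also fell in U118 and were not called under median-ratio scaling. In all, 2 of 17 partners rose and 5 fell there, beside 8.64% and 26.6% of all genes, and 2 and 1 of 16 under that scaling.

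Genes around the 10 were counted to see how far the differences reached along the chromosome. There were 516 genes with a start within 1 Mb of one of the 10, of which 95 were tested in U87 and 117 in U118. In U87, 3 rose and 6 fell, and in U118, 10 rose and 39 fell (33.3% of those tested, beside 26.6% of all genes). The window of PEG3 alone gave 24 of these 39 falls, from 46 of the 117 genes tested. In the other windows the share that fell in U118 ran from 0% (CDKN1C) to 36.4% (PLAGL1), so the pooled share does not describe each window. Genes that passed the filter through their sensitive libraries alone are among these falls, so the U118 counts are a description. The shares of all genes were 3.03% and 7.79% in U87 and 8.64% higher in U118. Under median-ratio scaling the U118 neighbours split into 22 higher and 28 lower of 114, where 15.2% and 12.9% of all genes were called. Around MEST in U118, 1 of 17 tested neighbours rose and 6 fell, and their differences were all smaller in size than that of MEST. Among the falls, KLF14 and AC007938.3 passed the filter through their sensitive libraries alone and so had to differ, which makes this count a description. AC007938.3, 21489 bp downstream, was at 2.32, 3.15 and 2.85 TPM in sensitive and 0.439, 0.120 and 0.112 TPM in resistant libraries. Under median-ratio scaling 3 of these 6 falls kept a difference of -1 or below, KLF14 and AC007938.3 among them. COPG2, whose end overlaps that of MEST on the opposite strand, was at 42.6 to 47.1 TPM in U118 sensitive and 10.2 to 33.2 TPM in resistant libraries (-1.44, limma adjusted p = 0.0143), and the difference was -0.90 under median-ratio scaling, below the size of a call. CEP41, upstream of MEST, was at 21.0 to 29.7 TPM and 6.72 to 13.4 TPM (-1.31, adjusted p = 0.00461), and -0.79 under that scaling. Of 2 entries named LINC-PINT, a non-coding RNA downstream, ENSG00000226380 fell (-1.83, adjusted p = 0.000589) and ENSG00000231721 rose (1.74, adjusted p = 0.00161). CPA4, an imprinted carboxypeptidase of the same region, was not called in either line.

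**Figure D4:**
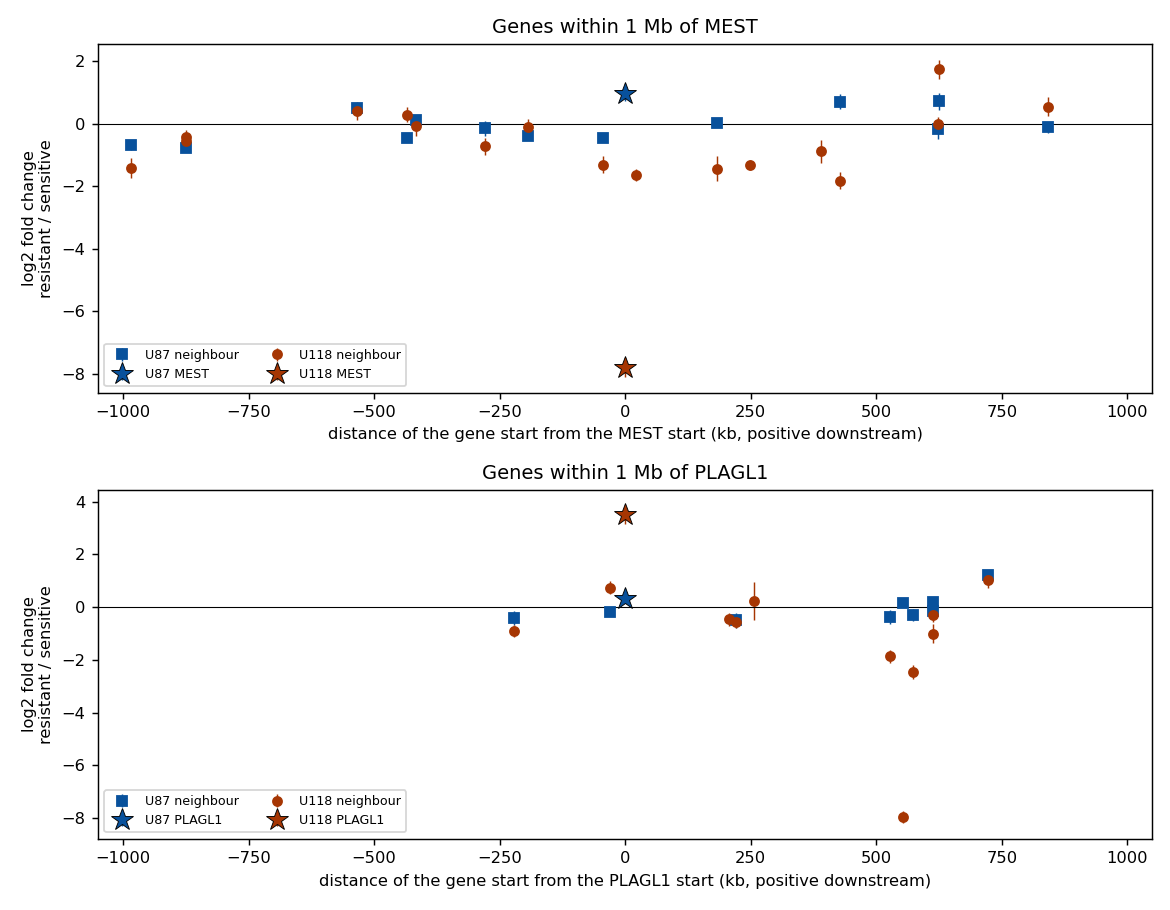
log2 difference (resistant against sensitive, with SE) of the tested genes within 1 Mb of MEST (top) and of PLAGL1 (bottom), against the distance of their starts in kb; squares are U87, circles U118 and stars the gene itself. The MEST star of U118 lies at -7.80, below all its neighbours, and 1 PLAGL1 neighbour, FUCA2, lies at -7.97.

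Around PLAGL1, 1 of 11 tested neighbours rose and 4 fell in U118, beside 8.64% and 26.6% of all genes. FUCA2, a fucosidase gene 552909 bp downstream, was at 279, 269 and 211 TPM in U118 sensitive libraries and at 0.0287, 0 and 0 TPM in resistant ones (-7.97). It passed the filter through its sensitive libraries alone, so this is a description. In U87 it was at 253 to 314 TPM in all 6 libraries, so here the U118 resistant libraries differed from both lines. The gap in FUCA2 runs opposite to that of PLAGL1 in the same libraries. VDAC1P8, a pseudogene that overlaps FUCA2 on the opposite strand, fell as well (-2.46, likewise a description). Since strand was not stated to be used, its reads and those of FUCA2 cannot be told apart. PHACTR2 fell too (-1.87, limma adjusted p = 0.000309). ADAT2 fell by barely the size of a call (-1.002, adjusted p = 0.0384), a call that median-ratio scaling did not keep (-0.54).

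The window around PEG3 held the most calls. PEG3 itself was silent, yet 24 of its 46 tested neighbours fell in U118 (52.2%, beside 26.6% of all genes), 21 of them named as zinc-finger genes, their antisense transcripts or pseudogenes. Of these 24, 13 were under 0.1 TPM in all 6 U87 libraries and 11 were listed at 0 in all 3 U118 resistant libraries. Those 11, and others such as ZNF772, passed the filter through their sensitive libraries alone and so had to differ. The share of 52.2% is therefore a description. ZNF667-AS1 was at 28.1 to 47.7 TPM in U118 sensitive libraries and listed at 0 in all others. ZNF772 fell from 14.1 to 17.7 TPM to 0.0258 to 0.168 TPM (-3.94, a description), and in U87 it stayed at 1.04 to 2.45 TPM. Zinc-finger genes of this cluster are near copies of each other, so reads may be split between them. In U87 only ZNF586 of 25 tested was called in this window (-1.13), and it passed the filter through its sensitive libraries alone.

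In the PEG10 and SGCE window, TFPI2 and 2 non-coding genes beside it rose in U118. AC003092.1 went from 3.68 to 5.60 TPM to 85.6 to 114 TPM (4.12, limma adjusted p = 1.99e-06). COL1A2, the fibroblast collagen, fell from 446 to 679 TPM to 124 to 313 TPM (-1.73, adjusted p = 0.00420). Near CDKN1C in U87, 4 of 20 tested neighbours fell (beside 7.79% of all genes), namely TSSC2 (-2.12), MRGPRE (-2.16), AC109309.1 (-1.93) and KCNQ1. All but TSSC2 passed the filter through their sensitive libraries alone and so had to differ, which makes this count a description. MRGPRE and AC109309.1 overlap on opposite strands, and strand was not stated to be used, so their reads cannot be told apart. TSSC2 ran the other way in U118, from 0.107 to 0.230 TPM to 7.58 to 13.5 TPM (3.21). There it passed the filter through its resistant libraries alone, so this is a description.

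The genes most like MEST were sought over 16381 genes by the distance of their log2(TPM + 1) values over the 12 libraries. FAM180A (distance 2.98), MMP1 (3.14), SERINC2 (3.65), SPANXB1 (3.68) and FOXF2 (4.14) were the nearest. FAM180A, also on chromosome 7, was at 273, 207 and 155 TPM in U118 sensitive and 0.494, 0.362 and 0.501 TPM in resistant libraries. MMP1, the interstitial collagenase, was at 809, 681 and 821 TPM and at 5.05, 1.28 and 1.64 TPM. FOXF2, a forkhead factor of mesenchyme, was at 205, 220 and 228 TPM in U118 sensitive libraries and listed at 0 in all other libraries. Levels of the 5 in U87 did not exceed 4.08 TPM, and likeness over 4 groups of libraries says nothing of a shared control.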

How the data were processed

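TPM tables, one per cell line, were deposited by the authors for mRNA libraries (VAHTS mRNA-seq V2 kit). The submitters' processing notes name FastQC 0.11.2, Trimmomatic 0.36, HISAT2 2.0, bedtools 2.26.0 and GRCh38; the quantification tool and annotation are not given in the sources used here. TPM keeps no read counts, so depth and detection limits are unknown, and precision rests on 3 libraries a group.

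Groups and replicate numbers came from the labels. Positions are from GENCODE release 29 (57836 of 58174 identifiers matched). R 4.3.3 with limma 3.58.1 (trended eBayes) fitted log2(TPM + 1) separately per line, for every gene that reached 1 TPM in 3 or more of the 6 libraries. The difference between lines was an interaction over 12 libraries (same minimum). The fit was tested on simulated data. Line-specific genes had at least 10 TPM in 3 sensitive libraries of a line and under 0.1 TPM in those of the other. Tables and figures used Python 3.11.15, pandas 2.3.3, numpy 2.4.6 and matplotlib 3.10.9.

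The 10 genes, all lists and the tests were chosen with earlier results of these data known. Named were all 10 genes, up to 10 called genes with the largest differences per list and line, and the 5 genes nearest to MEST; some called genes are given as counts only, and the choice of those described was made after their values were seen. Other genes outside this rule, such as THY1, GFAP, MKRN3, MESTIT1, HYMAI, KCNQ1OT1, MAGEL2 and CPA4, were also named after their values were seen. A called gene among the partners is not reported here. Alternatives were leaving out each library, median-ratio scaling, a pseudocount of 0.1, a mean TPM of 10 or more or no filter, no size threshold for calls, a replicate block, no trend, and TPM without mitochondrially encoded genes.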

Additional observations from a re-analysis of the deposited data

Results flagged for a closer look

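For 10 imprinted genes outside the 10 chosen, the change in U118 differed from that in U87 (limma interaction over the 12 libraries, log2 scale). The U118 change was the more positive one for KCNQ1 (1.66), FAM50B (2.39, adjusted p = 1.58e-05) and KCNK9 (2.88, adjusted p = 0.000117). It was the more negative one for TFPI2 (-1.14, adjusted p = 0.00131), SNRPN (-2.80, adjusted p = 2.18e-06), SNHG14 (-3.47, adjusted p = 2.67e-05), ZNF597 (-2.21), NAP1L5 (-4.20, adjusted p = 3.50e-07), NDN (-4.71) and KLF14 (-1.31). KCNQ1 was near 0 in U118, and NDN, ZNF597 and KLF14 in U87, so each of these differences is the change of the other line, in which the gene passed the filter through its sensitive libraries alone, and no p is given. FAM50B, NDN and KLF14 had a group listed at 0, so their values depend on the pseudocount and are no measure of a fold.

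MEST lay in opposite directions in the lines: every U87 resistant library lay above every sensitive one and every U118 resistant library below every sensitive one. The U118 change minus the U87 change was -8.75, and this difference was not tested.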

How the results depend on the processing

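No called difference of a named gene changed sign under the alternatives run. Median-ratio scaling turned the balance of calls over all genes from mostly lower to mostly higher (28.0% to 55.0% of calls higher in U87, 24.5% to 54.1% in U118), and it turned uncalled estimates such as SETDB1 in U87 (-0.01 to 0.23) and TRIM28 in U118 (-0.42 to 0.14). Raising the filter to a mean of 10 TPM, which tests fewer genes, gave 805 calls in U87 and 2688 in U118 in place of 1497 and 5475 over all genes, and 2 and 4 in place of 6 and 11 over the other imprinted genes. With no fold change threshold there were 5413 calls in U87, and 10 among the other imprinted genes. Leaving out 1 library gave 7 to 9 calls in U118 for the other imprinted genes: 7 of 19 tested without any one sensitive library, since genes at 0 in the resistant libraries then miss the filter. Over all genes these fits gave 1267 to 1691 calls in U87 and 4100 to 6394 in U118, and for neighbours 24 to 56 in U118 in place of 49 and 4 to 9 in U87 in place of 9. The neighbour counts under 30 in U118 and under 6 in U87 came from leaving out any one sensitive library. Without sensitive library 3 of U118, 4 of 9 imprinting regulators were called in place of 7 of 11. The alternatives for neighbours, regulators and partners were chosen after seeing the data. MEST was called higher in U87 with a pseudocount of 0.1 (1.65), under median-ratio scaling (1.10), without mitochondrially encoded genes (1.13), without sensitive library 2 (1.08) or 3 (1.02) and without resistant library 2 (1.05). Its U118 difference was -8.82 and that of PLAGL1 6.59 with a pseudocount of 0.1. SNURF in U87 lost its call with no filter and in 5 of 6 fits without 1 library (adjusted p up to 0.0888).

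Same-numbered libraries deviated together with r of 0.01, -0.07 and -0.04 in U87 and 0.14, 0.05 and 0.10 in U118, so the numbers were not taken as pairs. In U118 every library correlated best with its own number, a hint from the data and not the design. With the replicate block, 1454 genes were called in U87 and 5581 in U118, 6 and 11 of the other imprinted genes, and 11 in place of 10 differed between the lines.

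The unknown depth limits what values under 1 TPM can show, which covers 6 of the 10 genes.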
